A study of Mus musculus with 6 samples.

Results

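The 10 genes described here are the SMAD genes Smad1, Smad2, Smad3, Smad4, Smad5, Smad6 and Smad7, the corepressor gene Skil and the targets Id1 and Id3, which belong to signalling by transforming growth factor beta (TGF-beta) and bone morphogenetic proteins (BMP). They were chosen by name, with earlier results of these data known. All 10 were present among the 11866 genes with deposited values and passed the minimum of a mean of 1 FPKM (fragments scaled by gene length and sequencing depth) that left 10770 genes for testing. The values come from RNA-seq of HCC3-4, a mouse liver tumour cell line established from MYC transgenic animals. The knockdown group (KD, 3 libraries) stably carried a short hairpin RNA against Sf3b3, a subunit of the splicing complex SF3b, and the control group (PLKO, 3 libraries) stably carried the pLKO.1-TRC negative control. The 6 libraries share the line, the MYC transgenic origin, the serum-containing medium and the stable transfection, and the labels name neither a further hairpin nor a rescue.

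Sf3b3 stood at 22.6, 28.7 and 29.2 FPKM in PLKO 1, 2 and 3 and at 10.3, 9.56 and 13.9 FPKM in KD 1, 2 and 3, so that the target gene fell in KD (log2 fold change -1.26, SE 0.23, limma adjusted p = 0.037). Its adjusted p in limma was 0.12 to 0.19 without PLKO 1, PLKO 2, KD 1 or KD 2. Reads on listed genes came to 15140441 to 17566101 per library. The libraries numbered 3 stood apart in both groups, which touches the levels, sums and differences of the inhibitors, Skil and the ID genes below. Of 13 hepatocyte markers only Krt8, Krt18 and Afp were listed. Alb, Ttr, Apoa1 and Hnf4a were among the 10 that were not, so the hepatocyte origin rests on the labels. The 3 listed markers summed to 59.7 to 86.7 FPKM in PLKO and to 52.6 to 86.9 FPKM in KD. Of 8 markers of fibroblasts and stellate cells 6 were listed, with a summed level of 103 to 158 FPKM in PLKO and 53.1 to 76.5 FPKM in KD. Of 6 cholangiocyte markers 3 were listed (109 to 237 FPKM and 134 to 253 FPKM), of 6 leukocyte markers Cd68 alone (at most 42.1 FPKM in PLKO and at least 44.4 FPKM in KD), and of 5 endothelial markers 0. The part of these markers in the results below was not tested. In bulk RNA, fewer cells of a type and less RNA per cell cannot be told apart.

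SMAD proteins carry the signal of this cytokine family from receptors at the cell surface into the nucleus. Receptors for TGF-beta and activin phosphorylate SMAD2 and SMAD3, receptors for BMP phosphorylate SMAD1, SMAD5 and SMAD9, and both kinds join SMAD4 before binding DNA. SMAD6 and SMAD7 are inhibitors whose genes are themselves switched on by the pathway, and SKIL (SnoN) is a corepressor of SMAD complexes and also a target gene. Id1 and Id3 are direct BMP targets that encode inhibitors of basic helix-loop-helix (bHLH) transcription factors. In liver, BMP signalling to Id1, Smad6, Smad7 and hepcidin is known from iron control, and TGF-beta signalling is known for growth arrest and fibrosis.

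The promoters of Smad6 and Id3, whose levels ranged widely between libraries, and of Smad3, whose level did not, are shown first because SMAD complexes are known to bind short motifs. Sequences are from RefSeq (GRCm38.p6), from 200 bases before to 10 bases after the annotated start, read 5′ to 3′. Capitals mark matches on either strand to the SMAD box CAGAC, the GC-rich element GGCGCC and the palindrome GTCTAGAC, none of which contains another.
Smad6, chr9:64022050-64022259, minus strand: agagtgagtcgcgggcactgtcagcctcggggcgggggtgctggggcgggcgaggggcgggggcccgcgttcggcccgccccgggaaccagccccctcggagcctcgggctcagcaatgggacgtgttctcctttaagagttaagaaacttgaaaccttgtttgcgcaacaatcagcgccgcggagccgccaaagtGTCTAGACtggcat
Id3, chr4:136143622-136143831, plus strand: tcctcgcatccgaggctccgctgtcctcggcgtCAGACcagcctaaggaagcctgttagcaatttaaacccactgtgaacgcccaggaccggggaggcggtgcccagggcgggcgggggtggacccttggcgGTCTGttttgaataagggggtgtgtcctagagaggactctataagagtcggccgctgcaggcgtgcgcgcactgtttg
Smad3, chr9:63757985-63758194, minus strand: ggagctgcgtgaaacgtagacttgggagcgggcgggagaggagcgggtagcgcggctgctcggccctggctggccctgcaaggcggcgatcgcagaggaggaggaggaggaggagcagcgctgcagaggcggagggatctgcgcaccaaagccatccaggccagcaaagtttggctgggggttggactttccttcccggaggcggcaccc
The palindrome lay across the start of Smad6, with its first base 4 bases before it. Id3 held 2 SMAD boxes, beginning 167 and 68 bases before its start. Among all 32851 RefSeq windows from 250 bases before to 50 bases after a start, the palindrome was present in 70 (0.213%), the SMAD box in 49.6% and the GC-rich element in 11.9%. A window was read for 5 of the 10 genes. Those of Smad1 and Smad3 held none of the motifs. Of 3 windows of Smad5, 2 overlapped and held the same copy of the GC-rich element, and the other held a SMAD box. These matches describe letters and not binding.

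None of the 10 genes was called different between KD and PLKO at a limma adjusted p under 0.05, and 1 (Skil) had an unadjusted p under 0.05. Over all genes 314 of 10770 were called (2.92%), 121 higher and 193 lower. The median log2 fold change was 0.31 over the 10 genes and -0.04 over all genes tested. Of the 10 genes 6 were higher in KD, or 7 with quantile normalization or median centring, where Smad6 changed sign. Over all genes tested 47.7% were higher in KD. The genes fell into sets with different spreads. Smad1 to Smad5 varied little between libraries, whereas the inhibitors, Skil and the ID genes spanned 5.26-fold to 12.5-fold, and the highest library of each group was always the one numbered 3. Equal numbers were taken to pair the libraries, which no label states. In deviations from the group means over all genes tested, PLKO 1 correlated more with KD 2 (0.27) than with KD 1 (0.18). In the same deviations PLKO 2 correlated about equally with KD 1 (0.30) and KD 2 (0.29). Block results and differences between equal numbers below therefore rest on an assumption. A fit with the library number as a block called 2080 genes (19.3%), of which Skil was the single one among the 10.

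**Figure D1:**
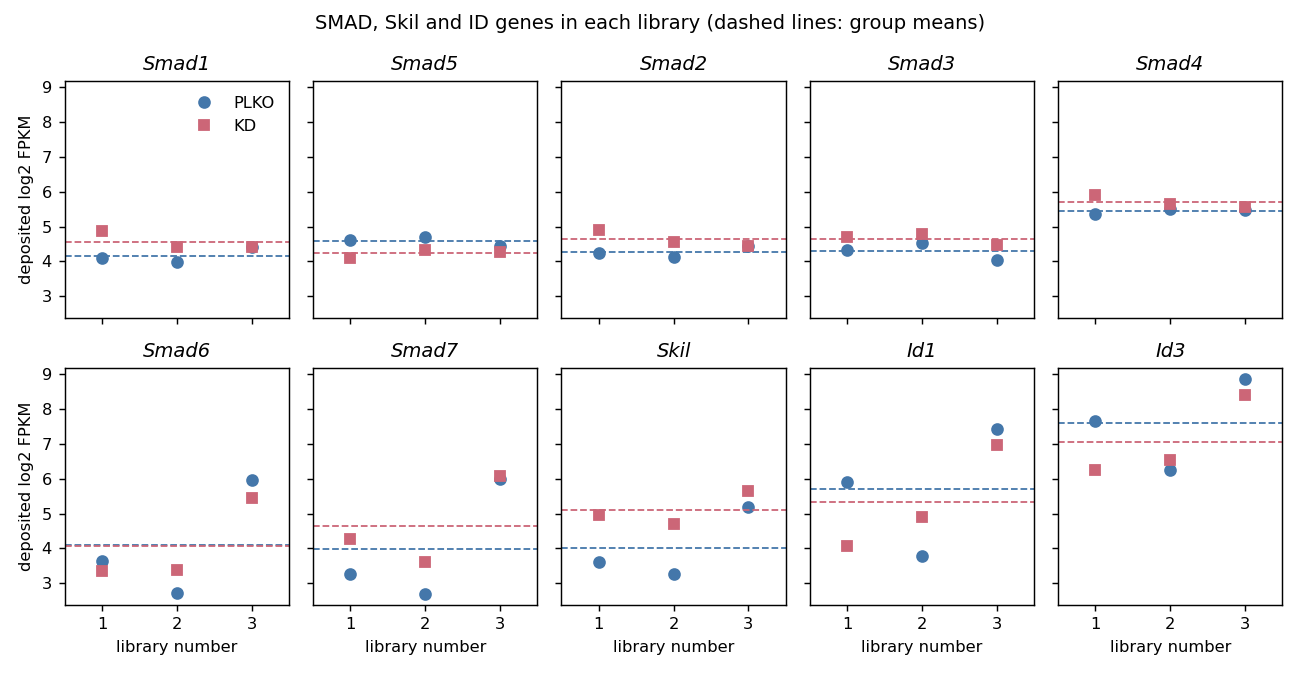
Deposited log2 FPKM of the 10 genes (vertical axis) in libraries 1, 2 and 3 of PLKO (circles) and KD (squares), with dashed lines at the group means of 3 libraries. Points of Smad1 to Smad5 lie close together, whereas in Smad6, Smad7, Skil, Id1 and Id3 both points at number 3 stand above the others of their group.

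Smad1 and Smad5, the transducers of the BMP arm, had differences of opposite sign. Smad1 stood at 17.0, 15.7 and 21.1 FPKM in PLKO and at 29.3, 21.3 and 21.5 FPKM in KD. Every KD library was above every PLKO library, by a small margin at KD 2 and KD 3. Its log2 fold change was 0.42 (SE 0.22, 95% confidence interval -0.09 to 0.92, limma adjusted p = 0.25). Smad5 stood at 24.5, 25.9 and 21.9 FPKM in PLKO and at 17.2, 20.3 and 19.2 FPKM in KD, so that every KD library was below every PLKO library. Its log2 fold change was -0.35 (SE 0.19, interval -0.78 to 0.08, limma adjusted p = 0.26). The gene of Smad1 (ENSMUSG00000031681.16) lies on chromosome 8 from 79338395 to 79399518 and that of Smad5 (ENSMUSG00000021540.16) on chromosome 13 from 56703010 to 56742377 (GRCm38, GENCODE M21). Smad5 overlaps 3 predicted genes on its own strand, Gm27301, Gm27834 and Gm27271, which could share its reads.

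Smad2 and Smad3, the transducers of TGF-beta and activin, both had means that were higher in KD. Smad2 stood at 18.9, 17.3 and 21.7 FPKM in PLKO and at 29.7, 23.7 and 21.7 FPKM in KD, with a log2 fold change of 0.37 (SE 0.21, interval -0.11 to 0.84, limma adjusted p = 0.28). The groups met at the libraries numbered 3, which had the same rounded value. Smad3 stood at 20.2, 23.0 and 16.5 FPKM in PLKO and at 26.0, 27.7 and 22.2 FPKM in KD. For Smad3 the log2 fold change was 0.35 (SE 0.21, interval -0.12 to 0.83, limma adjusted p = 0.30). KD 3 overlapped PLKO 2, while each KD library was above the PLKO library of its own number. Smad2 (ENSMUSG00000024563.16) lies on chromosome 18 from 76241580 to 76310963. The length behind its deposited values was 3549 bases, against 8781 exonic bases in GENCODE M21, so its level relative to other genes depends on the gene model. Its fold change does not depend on the length itself, but could depend on which exons were counted, which is not known.

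Smad4, the partner shared by both arms, was the most abundant of the SMAD transducers. It stood at 40.9, 45.1 and 44.2 FPKM in PLKO and at 60.3, 50.5 and 47.1 FPKM in KD. The groups did not overlap, and KD 1 was the highest library. For Smad4 the log2 fold change was 0.27 (SE 0.19, interval -0.16 to 0.70, limma adjusted p = 0.38). Smad4 (ENSMUSG00000024515.13) lies on chromosome 18 from 73639009 to 73703780 and overlaps AC132418.2 on the opposite strand. In all, 3 of the 10 genes (Smad1, Smad4 and Smad5) had groups that did not overlap, a share close to the 32.1% among all genes tested.

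Summing the transducers of each arm gave 39.2, 40.3 and 38.2 FPKM for Smad2 plus Smad3 in PLKO 1, 2 and 3 and 55.7, 51.4 and 43.9 FPKM in KD 1, 2 and 3. For Smad1 plus Smad5 the sums were 41.5, 41.5 and 43.0 FPKM in PLKO and 46.5, 41.5 and 40.7 FPKM in KD. On the deposited lengths the TGF-beta sum was the smaller in every PLKO library and the larger in every KD library. Its share of both arms was 48.3% ± 1.11 (SD, n = 3) in PLKO and 53.9% ± 1.80 (n = 3) in KD, with no overlap between the groups. Dividing the same Smad2 reads by the GENCODE length gave shares of 39.7% ± 2.47 and 45.2% ± 2.07, with the TGF-beta sum the smaller in all 6 libraries. Any reads on the added bases that were not counted are missing from these shares, which may thus be too low. These sums leave out Smad9, the remaining BMP transducer, which is outside the 10 genes. With Smad9 added, the BMP sum was 49.0, 46.1 and 58.8 FPKM in PLKO and 49.5, 43.9 and 52.1 FPKM in KD, larger than the TGF-beta sum in KD 3 as well. The TGF-beta share was then 43.5% ± 3.71 (39.4% to 46.6%) in PLKO and 50.9% ± 4.48 (45.7% to 53.9%) in KD, and the groups overlapped. Which sum is larger thus depends on the length by which the Smad2 reads are divided and on Smad9. These shares describe transcripts of genes chosen with earlier results in view and carry no test.

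**Figure D2:**
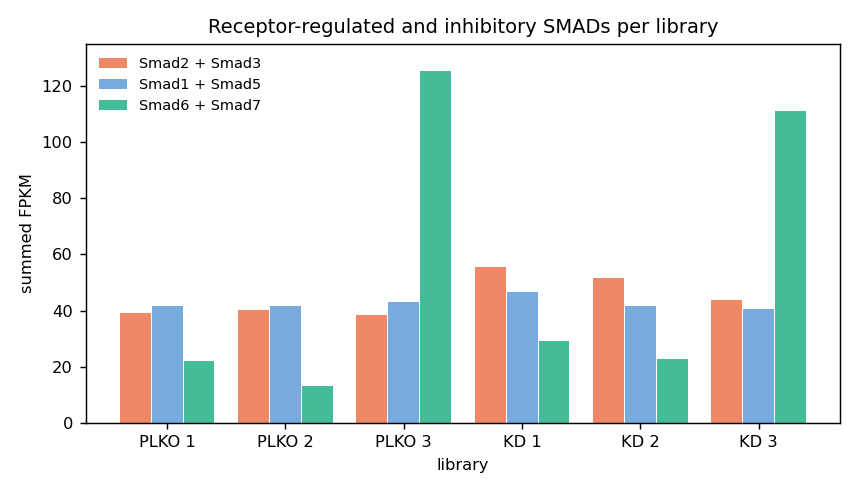
Summed FPKM (vertical axis, from 0) of Smad2 and Smad3, of Smad1 and Smad5 and of the inhibitors Smad6 and Smad7 in each of the 6 libraries; each bar is 1 library. The transducer sums stay between 38.2 and 55.7 FPKM, while the inhibitor sum is lowest in PLKO 2 and reaches 125 FPKM in PLKO 3 and 111 FPKM in KD 3. Without the libraries numbered 3 the mean inhibitor sum is 17.5 FPKM in PLKO and 26.0 FPKM in KD.

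Smad6, an inhibitor that acts mainly on the BMP arm, did not separate the groups. It stood at 12.4, 6.55 and 62.4 FPKM in PLKO 1, 2 and 3 and at 10.1, 10.5 and 43.8 FPKM in KD 1, 2 and 3. PLKO 3 and KD 3 were far above the other 4 libraries, which lay between 6.55 and 12.4 FPKM. The log2 fold change was -0.04 (SE 0.82, interval -1.89 to 1.80, limma adjusted p = 0.98). This interval covers changes of several fold in either direction, so differences of that size could have been missed. It was 0.89 without PLKO 3, 0.32 without KD 1, 0.29 without KD 2 and 0.19 without both libraries numbered 3, so its sign rested on single libraries. Reads on Smad6 ran from 349 to 3164 per library. The gene (ENSMUSG00000036867.7) lies on chromosome 9 from 63953076 to 64022059. Its neighbour Smad3 (ENSMUSG00000032402.12), at 63646767 to 63757994 on the same strand, had a 1.68-fold range over the 6 libraries, against 9.53-fold for Smad6.

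Smad7, the inhibitor of both arms, showed the same 2 high libraries. It stood at 9.67, 6.44 and 62.9 FPKM in PLKO and at 19.2, 12.3 and 67.3 FPKM in KD. Each KD library was above the PLKO library of its number, by 0.99, 0.93 and 0.10 on the log2 scale for numbers 1, 2 and 3. The log2 fold change was 0.67 (SE 0.85, interval -1.26 to 2.60, limma adjusted p = 0.63). With the library number as a block its SE was 0.24 and its limma adjusted p 0.066. Without both libraries numbered 3, in a comparison of 2 with 2, Smad7 had a log2 fold change of 0.96 and a limma adjusted p of 0.039, where 27.9% of all genes were called. Without KD 3 alone it was -0.04, and without PLKO 3 alone 1.67 (adjusted p in limma 0.98 and 0.11). Smad7 (ENSMUSG00000025880.11) lies on chromosome 18 from 75367529 to 75395935.

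Skil had the largest log2 fold change of the 10 genes. It stood at 12.3, 9.57 and 36.4 FPKM in PLKO and at 31.4, 25.9 and 50.4 FPKM in KD. PLKO 3 overlapped the KD range, and each KD library was above the PLKO library of its number, by 1.35, 1.44 and 0.47 on the log2 scale. The log2 fold change of 1.09 (SE 0.47, interval 0.02 to 2.15) did not pass the test over all genes (limma adjusted p = 0.18). With the library number as a block it was called (SE 0.24, limma adjusted p = 0.012), in a fit that called 8.19% of all genes as higher in KD. Without PLKO 3 it was 1.67 (limma adjusted p = 0.024, where 7.44% of genes were called, 3.28% as higher) and without both libraries numbered 3 it was 1.39 (limma adjusted p = 0.0056). Skil (ENSMUSG00000027660.16) lies on chromosome 3 from 31095058 to 31122577, with 1549 to 8568 reads per library.

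Id1 and Id3, the BMP targets, had the highest means of the 10 genes over all libraries. For Id1 this rested on the libraries numbered 3, without which its mean was 36.7 FPKM in PLKO and 23.3 FPKM in KD, below Smad4 at 43.0 and 55.4 FPKM. Id1 stood at 59.7, 13.7 and 172 FPKM in PLKO and at 16.7, 29.9 and 126 FPKM in KD. The groups overlapped throughout, with the lowest value in PLKO 2 and the highest in PLKO 3. For Id1 the log2 fold change was -0.38 (SE 0.93, interval -2.49 to 1.72, limma adjusted p = 0.81). Between equal numbers the difference was -1.84, 1.13 and -0.44 on the log2 scale, so its sign changed. The fitted value was 0.48 without PLKO 3, 0.24 without KD 1 and -0.36 without both libraries numbered 3. Reads on Id1 ran from 264 to 3148 per library. Id1 (ENSMUSG00000042745.9) lies on chromosome 2 from 152736251 to 152737410.

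Id3 stood at 203, 76.3 and 467 FPKM in PLKO and at 76.3, 93.7 and 337 FPKM in KD. PLKO 3 and KD 3 were again highest, and PLKO 1 stood between them and the other 3 libraries. For Id3 the log2 fold change was -0.53 (SE 0.70, interval -2.10 to 1.04, limma adjusted p = 0.65). Differences between equal numbers were -1.41, 0.30 and -0.47. The fitted value was 0.11 without PLKO 3 and -0.56 without both libraries numbered 3. With the library number as a block the limma adjusted p was 0.51 for Id1 and 0.20 for Id3. Id3 (ENSMUSG00000007872.3) lies on chromosome 4 from 136143497 to 136145755, with 2112 to 13239 reads per library.

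**Figure D3:**
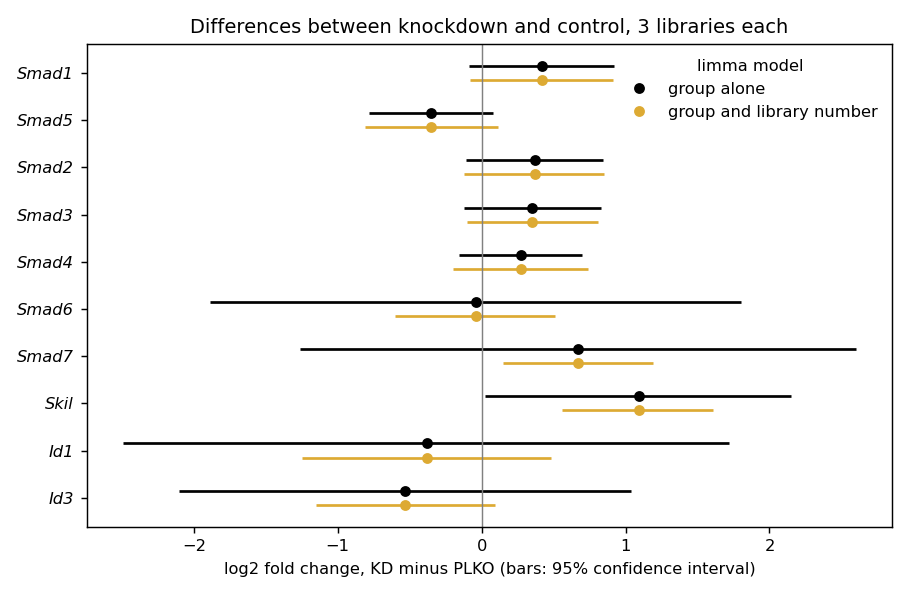
Log2 fold change of each of the 10 genes, KD minus PLKO (horizontal axis), with bars for the 95% confidence interval from limma with the group alone (black) and with the library number as a block (yellow), 3 libraries per group. The intervals of Smad6, Smad7, Id1 and Id3 are wide with the group alone and narrower with the block. That of Skil lies above 0 in both fits and that of Smad7 with the block alone, where its limma adjusted p was 0.066. The intervals are not adjusted for the number of genes.

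The order of mean levels in PLKO was Id3 (249 ± 199 FPKM, SD, n = 3), Id1 (81.7 ± 81.2), Smad4 (43.4 ± 2.20), Smad6 (27.1 ± 30.7), Smad7 (26.3 ± 31.7), Smad5 (24.1 ± 2.03), Smad3 (19.9 ± 3.24), Skil (19.4 ± 14.8), Smad2 (19.3 ± 2.22) and Smad1 (17.9 ± 2.84). FPKM are per length, here the summed exonic length of each gene model, so levels of different genes compare only as far as those models hold. For Smad2 the length itself is in doubt. Every pair of neighbours in this order had overlapping ranges over the 3 libraries. Without PLKO 3 the order was Id3 (140 FPKM), Smad4 (43.0), Id1 (36.7), Smad5 (25.2), Smad3 (21.6), Smad2 (18.1), Smad1 (16.3), Skil (mean of 12.3 and 9.57), Smad6 (9.48) and Smad7 (8.06). Smad6 and Smad7 thus moved from the middle to the end, and their place rested on PLKO 3.

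The spread within groups set the 10 genes apart from one another. The SD of log2 FPKM within groups was 0.12 for Smad5, 0.14 for Smad4, 0.20 for Smad2, 0.21 for Smad3 and 0.24 for Smad1, below the median of 0.33 over all genes tested. For Skil it was 0.80, for Id3 1.24, for Smad6 1.46, for Smad7 1.53 and for Id1 1.67. These last 5 values stood between the 94.7th and the 99.7th percentile of all genes. The cause of this spread was not tested.

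In these genes the libraries numbered 3 stood apart. Relative to the mean of libraries 1 and 2 of its group, Id1 was higher by 2.58 in PLKO 3 and by 2.50 in KD 3 on the log2 scale. The same differences were 1.91 and 1.99 for Id3, 2.79 and 2.09 for Smad6, 2.99 and 2.13 for Smad7 and 1.74 and 0.82 for Skil. For Smad1 to Smad5 they ran from -0.38 to 0.37. Smad9, a transducer outside the 10 genes, shared the pattern of the inhibitors and ID genes, with 1.43 and 2.09. Thus 4 of the 10 genes stood more than 1 above the other libraries in both groups, against 200 of all 10770 genes (1.86%). The 10 genes and the pathway lists were chosen with earlier results of these data known, so such contrasts are descriptions and carry no test. Among the marker sums, that of fibroblasts and stellate cells was also highest in library 3 of each group (158 and 76.5 FPKM) and Cd68 was lowest there (9.19 and 44.4 FPKM), and their part in this pattern was not tested.

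BMP target genes outside the 10 followed in part. Of 10 listed as such, 4 could be tested, and 3 of these (Id2, Atoh8 and Hey1) stood more than 1 higher in both libraries numbered 3. Id2, a further ID gene, stood at 18.5, 7.04 and 143 FPKM in PLKO and at 4.19, 7.14 and 107 FPKM in KD. Atoh8, a bHLH factor induced by BMP, stood at 13.9, 5.01 and 79.8 FPKM in PLKO and at 4.30, 4.88 and 66.1 FPKM in KD. Msx1 was the exception, with 2.43 to 3.36 FPKM in PLKO and 3.11 to 5.28 FPKM in KD. None of the 4 was called between KD and PLKO (limma adjusted p = 0.70 for Id2, 0.73 for Atoh8, 0.89 for Hey1 and 0.25 for Msx1), and the log2 fold changes of Id2 (-0.85) and Atoh8 (-0.67) became 0.37 and 0.42 without PLKO 3 and 0.06 and 0.02 without KD 1. Among 15 tested TGF-beta target genes 4 stood more than 1 higher in both libraries numbered 3, and these were Ctgf, Cyr61, Snai1 and Junb. Hes1, a Notch target from the list of bHLH partners, was higher by 2.89 in PLKO 3 and by 3.58 in KD 3, so genes outside the BMP and TGF-beta lists shared this pattern.

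**Figure D4:**
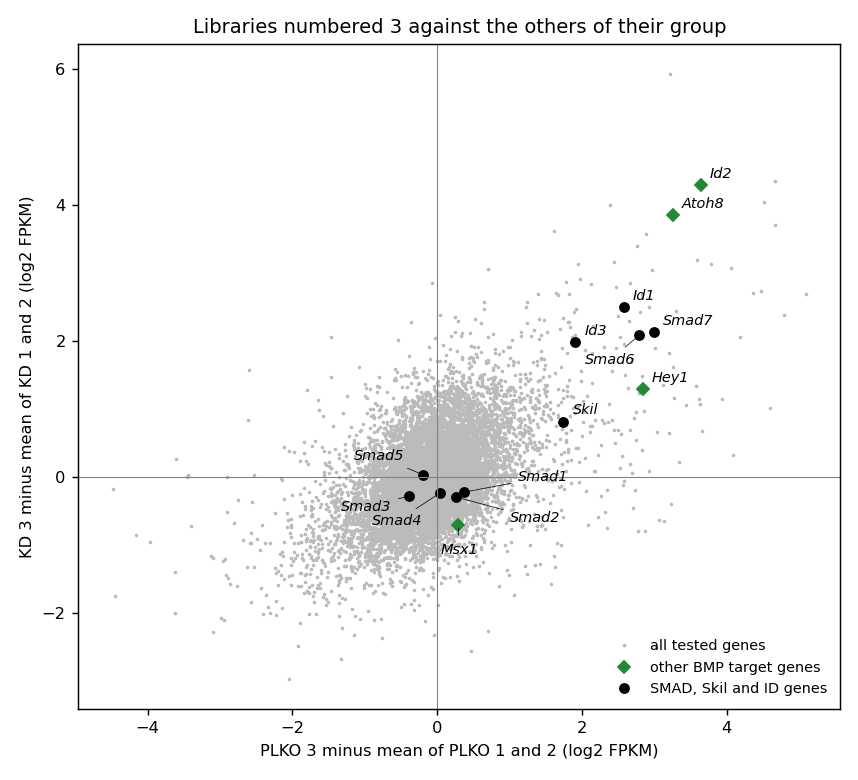
Difference of PLKO 3 from the mean of PLKO 1 and 2 (horizontal axis) and of KD 3 from the mean of KD 1 and 2 (vertical axis) in log2 FPKM, for all 10770 tested genes (grey), the 10 genes (black) and the other BMP target genes (green diamonds). Id1, Id3, Smad6 and Smad7 lie beyond 1 on both axes with Id2, Atoh8 and Hey1, while Smad1 to Smad5 lie near 0.

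The genes most like Id1 over the 6 libraries, by the root mean square difference of centred log2 FPKM, were Selenbp1 (0.32), Id3 (0.39) and Smad6 (0.47), out of all 10770 genes. The genes most like Smad7 were Errfi1 (0.27), Thbs1 (0.32) and Crybb3 (0.33). Smad6 ranked eighth to it, at 0.43, Skil was at 0.65 and Id1 at 0.83. Errfi1, a feedback inhibitor of the EGF receptor, stood at 34.2, 21.5 and 157 FPKM in PLKO and at 43.2, 45.5 and 186 FPKM in KD. Thbs1, a matrix protein that activates latent TGF-beta, stood at 24.6, 20.5 and 181 FPKM in PLKO and at 38.3, 48.8 and 162 FPKM in KD. These likenesses are descriptions over 6 libraries, and each of these genes was highest in library 3 of both groups.

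Of 90 tested genes on the pathway lists 3 were called (3.33%), close to the 2.92% over all genes. Of 12 tested type I and type II receptors and co-receptors 2 were called, both higher in KD. In all 8 of the 12 were higher and 4 lower, with a list median of 0.29, while 47.7% of all genes tested were higher. Acvr1b, the type I activin receptor that phosphorylates SMAD2 and SMAD3, rose from 8.41, 8.03 and 6.86 FPKM in PLKO to 19.8, 21.1 and 14.3 FPKM in KD (log2 fold change 1.23, SE 0.23, limma adjusted p = 0.038). Acvr2b, a type II receptor of this cytokine family, rose from 1.27, 1.04 and 1.17 FPKM to 5.15, 3.79 and 3.40 FPKM, with a fold change of 1.81 on the log2 scale (SE 0.30, adjusted p in limma 0.032). Tgfbr1, the type I TGF-beta receptor, had a log2 fold change of 0.81 (limma adjusted p = 0.091, or 0.036 with the block). The other higher ones, Bmpr2, Bmpr1a, Tgfbr3, Acvr1 and Acvr2a, stood at 0.51, 0.37, 0.32, 0.26 and 0.10 on the same scale. Their adjusted p in limma was 0.18, 0.31, 0.59, 0.43 and 0.81, and they were named after their values were seen. The 4 lower ones, named for the same reason, were Rgma, a BMP co-receptor (-0.70, groups without overlap), Neo1 (-0.34), Tgfbr2, the type II TGF-beta receptor (-0.19), and Acvrl1 (-0.02), with limma adjusted p of 0.17, 0.32, 0.59 and 0.98.

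Of 13 tested TGF-beta and activin ligands and activators 1 was called. Furin, a protease that cleaves precursors of this family, rose from 13.6, 15.8 and 14.2 FPKM in PLKO to 32.4, 32.2 and 24.2 FPKM in KD (log2 fold change 1.02, SE 0.21, limma adjusted p = 0.044). The list median was -0.16, with 8 of 13 lower. Itgb8, an integrin chain that activates latent TGF-beta, had a log2 fold change of 1.74 and Ltbp1, which binds latent TGF-beta, of -0.73. Their adjusted p in limma was 0.064 and 0.087 without the block, 0.019 and 0.037 with it. Itgb8 averaged 0.872 FPKM in PLKO and 2.96 FPKM in KD. It passed the minimum of 1 FPKM through KD alone, the group where it was higher. Tgfb1, Tgfb2 and Tgfb3, chosen after their values were seen, stood at -0.46, -0.19 and -0.44 (limma adjusted p from 0.23 to 0.69). Of 14 BMP and GDF ligands Bmp4 alone could be tested, at -0.25 (limma adjusted p = 0.57). The calls of Acvr1b, Acvr2b and Furin were lost without PLKO 1, PLKO 2, KD 1 or KD 2, with limma adjusted p from 0.12 to 0.20 and log2 fold changes from 0.95 (Furin) to 1.88 (Acvr2b). No gene at all was called by limma in those 4 fits, where 1793 to 2315 genes had an unadjusted p under 0.05. Without the variance trend limma gave adjusted p of 0.056 for Furin and 0.052 for Acvr1b.

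No gene was called by limma in the remaining lists of regulators. Of 17 tested regulators of SMAD turnover and signalling, with a median of -0.09, the lowest p-values belonged to Dab2, Zfyve9 and Pmepa1. Dab2, an endocytic adaptor that binds SMADs and receptors, had a log2 fold change of 1.17 (limma adjusted p = 0.057, or 0.012 with the block). Zfyve9 (SARA), which presents SMAD2 and SMAD3 to the receptor, stood between 10.6 and 12.3 FPKM in PLKO and between 6.12 and 7.15 FPKM in KD, without overlap (log2 fold change -0.77, limma adjusted p = 0.062, or 0.029 with the block). Pmepa1, a TGF-beta target that sequesters SMADs, was at 0.73 (0.079, and 0.039 with the block). With the block 2 of these 17 were called higher and 1 lower, where 19.3% of all genes were called, 8.19% as higher. Of 5 tested secreted antagonists, with a median of -0.37, the block called Nbl1 higher and Twsg1 lower. Their log2 fold changes were 1.62 and -0.67, with limma adjusted p = 0.033 and 0.045 with the block and 0.091 and 0.12 without it. Nbl1 averaged 0.596 FPKM in PLKO and 2.05 FPKM in KD, with 17 to 95 reads per library. It passed the minimum of 1 FPKM through KD alone, so it entered the test because of the group where it was higher. Dand5 was at -0.53 (limma adjusted p = 0.37).

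Of 18 tested nuclear partners and corepressors 13 were higher in KD, with a median of 0.23, while 47.7% of all genes tested were higher. Sp1, Hipk2 and Runx1 stood at 0.71, 1.15 and 0.67 (adjusted p in limma 0.088, 0.13 and 0.13). The block, which called 19.3% of all genes, called Sp1 and Hipk2 higher (0.039 and 0.0067) and Smad9 lower. Smad9 stood at 7.51, 4.58 and 15.8 FPKM in PLKO and at 2.99, 2.40 and 11.4 FPKM in KD (log2 fold change -0.91, limma adjusted p = 0.36, or 0.023 with it). Among the 5 tested bHLH partners of ID proteins Tcf3, which encodes E12 and E47, had 52.1, 43.2 and 50.8 FPKM in PLKO and 29.1, 36.2 and 35.5 FPKM in KD, without overlap (log2 fold change -0.54, limma adjusted p = 0.12). Tcf4 and Tcf12, which encode the other E proteins, were at 0.27 and -0.29 (limma adjusted p = 0.48 and 0.42).

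TGF-beta target genes did not move in 1 direction. Of 15 tested 7 were higher and 8 lower in KD, with a median of -0.06, and none was called without the block. The block called 4 higher and 3 lower, in a fit that called 19.3% of all genes, 8.19% as higher. Ctgf, a matricellular target of SMAD3 and of YAP, stood at 2.69, 2.24 and 26.7 FPKM in PLKO and at 26.6, 29.4 and 58.4 FPKM in KD (log2 fold change 2.72, SE 0.82, limma adjusted p = 0.084, and 0.0019 with the block). PLKO 3 reached the level of KD 1. Snai2, a transcription factor of epithelial to mesenchymal transition, stood at 8.28, 6.10 and 9.62 FPKM in PLKO and at 2.20, 1.84 and 6.12 FPKM in KD (log2 fold change -1.43, limma adjusted p = 0.085, and 0.0067 with the block). Bhlhe40 had a log2 fold change of 0.86 (limma adjusted p = 0.059, and 0.022 with the block).

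**Figure D5:**
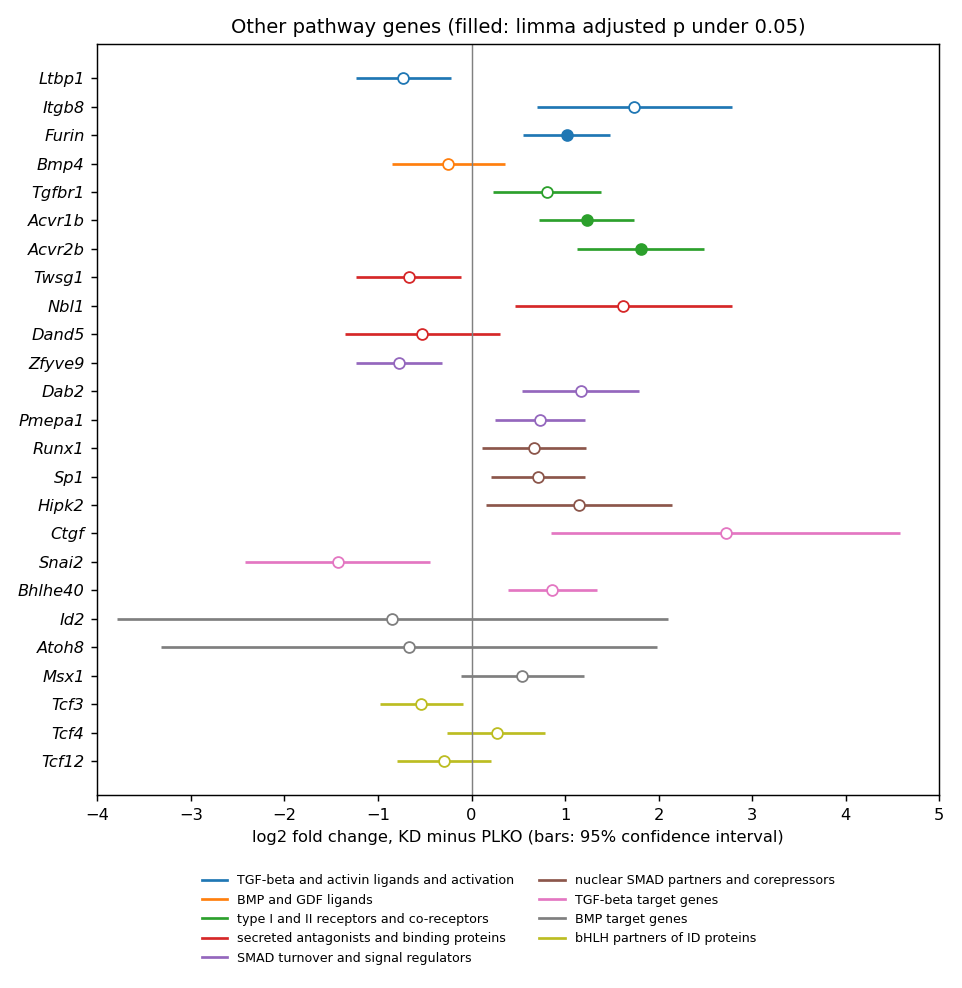
Log2 fold change, KD minus PLKO (horizontal axis), with 95% confidence intervals from limma (3 libraries per group), for up to 3 tested genes of each pathway list with the lowest adjusted p. Filled points mark the 3 genes with a limma adjusted p under 0.05, Furin, Acvr1b and Acvr2b, and colours mark the lists.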

How the data were processed

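The authors deposited 1 table of log2 FPKM per gene and library, as read from its values, which run from -7.85 to 13.17. Base 2 follows from the steps above floors shared by 21 genes, which match whole reads with a largest deviation of 3.2e-08, after a prior averaging 2.0 reads. Such a prior understates fold changes of genes with few reads. FastQC 0.11.7 and the build GRCm38 are named, per the submitters' processing notes. An aligner is not given in the sources used here, nor are counter, strand use and gene filter. Without strand, overlapping genes cannot be separated. Reads were recovered from the steps (tolerance 0.01) with GENCODE M21 lengths for 10962 genes and scanned lengths for 904, Smad2 among them.

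The test was limma 3.58.1 (R 4.3.3) with a variance trend, fitted to the deposited log2 values of 10770 genes with the group alone in the model. It used 4 residual degrees of freedom and Benjamini-Hochberg adjustment over these genes. FPKM are powers of 2 of the deposited values. On simulated data with 10770 genes, 200 of them changed, the fit recovered 9% of genes changed 2-fold and 68% of those changed 4-fold. The simulated errors were normal and independent, without the likeness of the libraries numbered 3, so these rates may not hold for the real data. No label names separate cultures, and p-values cover only library-to-library spread, possibly technical. Deviations from group means correlated over genes at 0.18, 0.29 and 0.50 for libraries numbered 1, 2 and 3, above the limit of 0.1, so equal numbers were taken to pair libraries. No label states this pairing. PLKO 1 correlated more with KD 2 (0.27) than with KD 1, and PLKO 2 slightly more with KD 1 (0.30) than with KD 2. The likeness of the libraries numbered 3 alone can raise these values, so the block rests on an assumption for libraries 1 and 2. The block also leaves fewer residual degrees of freedom than the 4 of the main fit.

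The 10 genes, the pathway lists and the tests were chosen with earlier results of these data known. Named were the 10 genes, Sf3b3, up to 3 genes per list with the lowest adjusted p, and the 3 genes most like Id1 and Smad7; other names were chosen after their values were seen. Alternatives were log2(FPKM + 1), 2 filters, 2 scalings, no trend, array weights, the block, libraries left out and voom on recovered reads.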

Additional observations from a re-analysis of the deposited data

How the results depend on the processing

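Smad1, Smad2, Smad3, Smad4 and Smad5 kept their direction and stayed uncalled in all 16 alternatives, and Skil kept its direction in all 16 (0.70 to 1.67). Leaving out 1 library at a time, log2 fold changes ran from -0.74 to 0.89 for Smad6, from -0.04 to 1.67 for Smad7, from -1.35 to 0.48 for Id1, from -1.20 to 0.11 for Id3, from -2.28 to 0.37 for Id2, from -1.95 to 0.42 for Atoh8 and from -1.43 to -1.15 for Sf3b3. Id1 was positive without PLKO 3 or KD 1, Id3 without PLKO 3, Smad6 without PLKO 3, KD 1 or KD 2, and Smad7 negative without KD 3. Smad6 also changed sign with quantile normalization (0.02), median centring (0.01) and without both libraries numbered 3 (0.19). In that last fit Smad7 (0.96) and Skil (1.39) were called, and with the replicate block Skil (1.09), which makes 2 and 1 of the 10 genes called; the block changed no other call among the 10. Over all genes 151 were called without the variance trend, 3599 with array weights (gene-by-gene, since the default did not converge), 2080 with the replicate block, 3009 without both libraries numbered 3, and 0 to 1744 with 1 library left out (801 without PLKO 3, 1744 without KD 3). Leaving out 1 library called 0 to 1 of the 10 genes, 0 to 2 ligands and activators, receptors, antagonists and turnover regulators, 0 to 1 nuclear partners and 0 to 3 TGF-beta targets. Ligand and activator calls were 0 without the trend, 4 with array weights, 3 with the block and 4 without both libraries numbered 3. Receptor calls were 1 with a minimum of 5 FPKM (Acvr2b not tested), 1 without the trend, 4 with array weights and 4 without both libraries. With array weights, the block and without both libraries, the 5 antagonists had 2, 2 and 2 calls and the 17 turnover regulators 7, 3 and 5. The 18 nuclear partners had 5, 3 and 6, and the 15 TGF-beta targets 9, 7 and 10 (1 with median centring). These counts stand beside 3599, 2080 and 3009 of all 10770 genes in the same fits (19.3% with the block and 27.9% without both libraries). BMP targets had 1 call with array weights and 1 without both libraries, and bHLH partners 1 with array weights. Of alternatives chosen after seeing the data, adding Smad9 to the BMP sum moved the Smad2 and Smad3 share to 43.5% in PLKO and 50.9% in KD; without both libraries numbered 3 it was 48.9% and 54.9%. Causes were not tested. With 3 libraries per group and their spread, the tests of Smad6, Smad7, Id1 and Id3 could have missed changes of several fold.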
